A study of Mus musculus with 9 samples.

Results

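Transcripts of 38 mouse genes that build and sulfate glycosaminoglycans were followed in 9 RNA-seq libraries of primary articular chondrocytes, the cells that lay down the matrix of joint cartilage. The genes were chosen by name as the enzymes and transporters of 7 steps of the pathway, out of 55471 genes listed for each culture, with earlier results of these data known. Each of 3 groups held 3 cultures. Control cells and Ad-OSCAR cells were both infected with adenovirus, and in Ad-OSCAR cells the virus carried the mouse gene for OSCAR (osteoclast-associated receptor, a receptor for collagen). Ad-OSCAR + 5-ASA cells received the same OSCAR virus and then 5-ASA (5-aminosalicylic acid, an anti-inflammatory drug).

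All cells were isolated from knee cartilage (femoral condyles, tibial plateaus) of wild-type mice at postnatal day 5 and were grown in DMEM with 10% fetal bovine serum. Per the labels, they were cultured for 3 days, exposed to virus for 2 h at 400 infectious units per cell and kept for a further 36 h before 5-ASA. The methods of the study give 10 µM 5-ASA for 24 h, plates coated with the OSCAR-binding collagen peptide COLpep in all groups, and other values for the culture time and virus dose, so these conditions are known only within that range. OSCAR was thus forced from a virus in cultured newborn cells and not from its own promoter. The labels do not say whether the cultures of a group came from separate animals, so p-values measure the spread between these cultures, which may be technical.

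The viral transcript was present where the labels place it. Oscar stood at 0.19, 0.12 and 0.21 CPM (counts scaled to the library size) in the Control cultures, at 6354, 7112 and 6528 CPM in the Ad-OSCAR cultures and at 3528, 2946 and 3723 CPM in the treated cultures. The treated cultures therefore held less of it than the untreated Ad-OSCAR cultures (log2 fold change −0.97, SE 0.06, edgeR adjusted p = 1.76e-08), and this difference stands beside every comparison of those groups. Libraries held 19733448 to 28192740 counts, no library stood apart, and all 9 chondrocyte markers were measured in every culture. Those markers summed to 38572 to 44278 CPM in Control, 2373 to 2703 CPM in Ad-OSCAR and 2833 to 3285 CPM in treated cultures, and all 9 were lower in Ad-OSCAR than in Control. In treated against untreated Ad-OSCAR cultures 5 of the 9 were higher and 0 lower (edgeR adjusted p below 0.05). Of all genes tested, 10.4% were higher and 7.38% lower there. In bulk RNA, fewer cells of a type and less RNA per cell cannot be told apart.

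Glycosaminoglycans are long sugar chains attached to proteoglycan core proteins. A linker of xylose, galactose and glucuronic acid is built on a serine of the core, and the chain is then extended either as chondroitin or as heparan. Sulfate, imported into the cell and activated as the donor PAPS, is added to the chain in the Golgi, and in cartilage the negative charge of sulfated chondroitin chains on aggrecan holds water in the matrix.

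In Ad-OSCAR cells most of this pathway was at a lower transcript level than in Control cells, and the largest differences were those of Slc26a2 and Papss2 (sulfate import and activation), the heparan chain gene Extl1 and the chondroitin synthase Chsy1. Of the 37 members that could be tested, 27 were lower, 4 were higher and 6 did not pass an adjusted p of 0.05 (edgeR quasi-likelihood test, Benjamini-Hochberg adjustment over 15362 genes). That is 73.0% of the members tested lower and 10.8% higher, where 32.2% of all genes tested were lower and 32.7% higher. The median log2 fold change over the members was −0.50, against 0.02 over all genes tested. Control and Ad-OSCAR cultures did not overlap for those same 27 and 4 members, as for 34% of all genes on the lower and 35% on the higher side. Scaling by library size only moved the median of all genes by 0.13 and gave 25 members lower and 6 higher, while all genes went from 4952 lower and 5031 higher to 3905 lower and 6609 higher. Under the limits the study used for this comparison (a log2 fold change beyond 1.5 and an adjusted p below 0.05), 4 members were lower (Slc26a2, Papss2, Extl1 and Chsy1) and none of the 37 tested was higher (0 also with DESeq2, the largest rise being 0.67), with 5.39% of all genes lower and 4.56% higher. The untested member was Chst13, a chondroitin sulfotransferase with 3 or fewer counts in each of the 9 cultures.

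**Figure D1:**
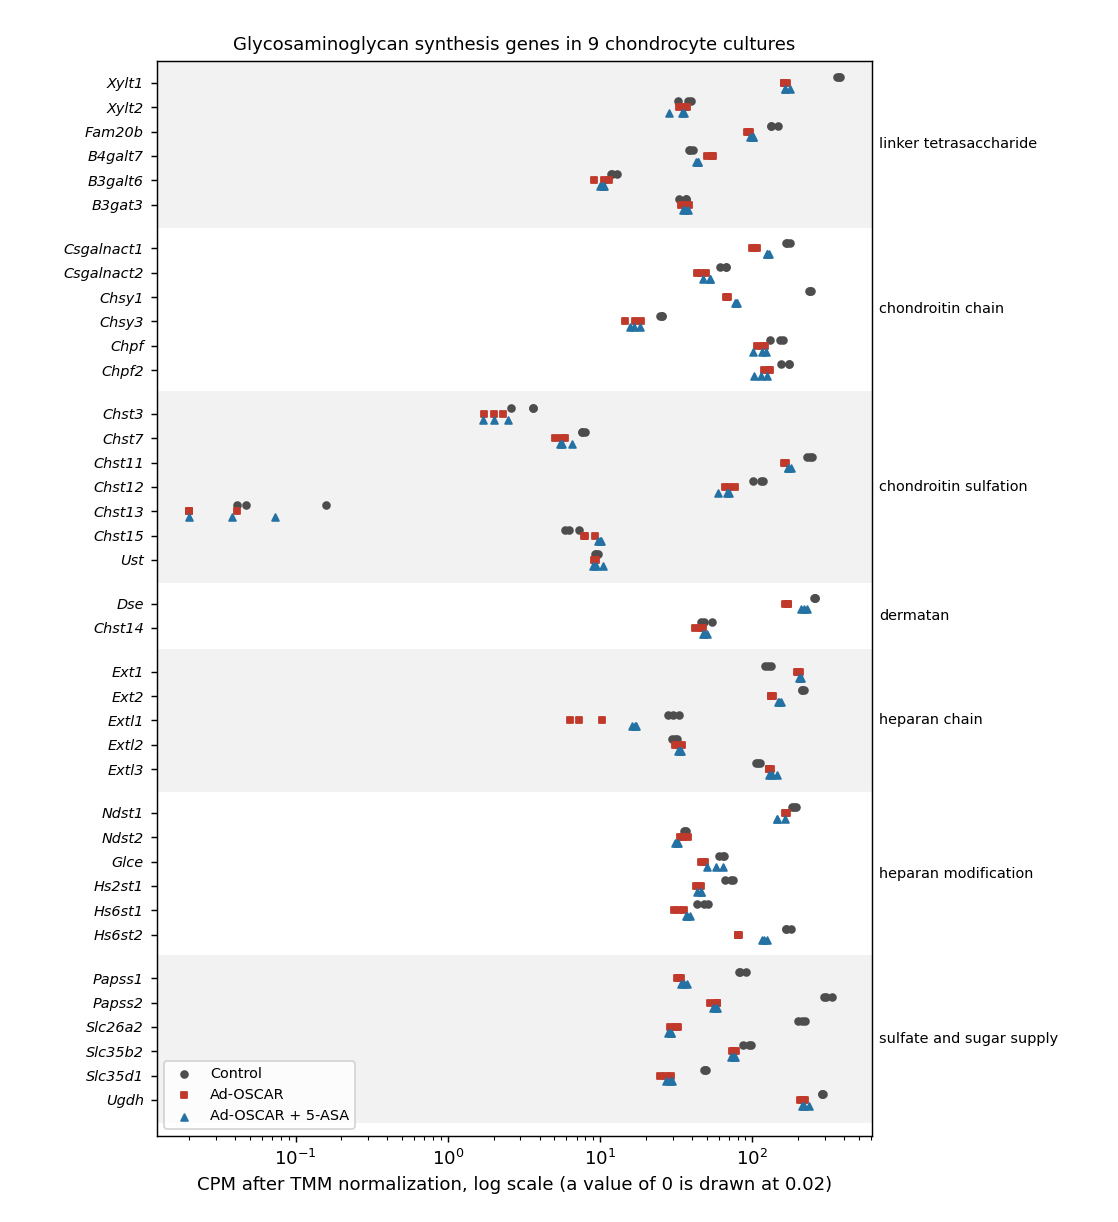
Transcript level of each of the 38 genes in each culture, in CPM after TMM normalization on a log axis, with 1 point per culture and colour and shape for the group, grouped by pathway step. The Ad-OSCAR and treated cultures lie to the left of the Control cultures for Slc26a2, Papss2, Papss1, Xylt1 and Chsy1 and to the right of them for Ext1.

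All 6 genes of sulfate and sugar supply were lower in Ad-OSCAR cells, with a median log2 fold change of −1.10, where 32.2% of all genes were lower. Slc26a2, the sulfate transporter of the plasma membrane, was at 223, 211 and 198 CPM in Control, 32.3, 28.9 and 31.4 CPM in Ad-OSCAR and 27.9, 29.3 and 29.2 CPM in treated cultures. It was 6.81-fold lower in Ad-OSCAR than in Control (log2 fold change −2.77, SE 0.06, edgeR adjusted p = 1.66e-17). Every Control culture lay far above the other 6, which overlapped each other.

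Papss2, which makes PAPS from sulfate and ATP, was at 334, 302 and 297 CPM in Control, 58.6, 52.7 and 58.1 CPM in Ad-OSCAR and 55.1, 57.8 and 58.6 CPM in treated cultures. It was 5.50-fold lower in Ad-OSCAR (log2 fold change −2.46, SE 0.06, edgeR adjusted p = 8.24e-17). Papss1, the other PAPS synthase, was at 90.1, 82.9 and 81.2 CPM in Control, 34.2, 33.2 and 32.2 CPM in Ad-OSCAR and 37.0, 33.8 and 35.4 CPM in treated cultures. Its change was smaller, 2.55-fold (log2 fold change −1.35, SE 0.05, edgeR adjusted p = 1.30e-13), and for both synthases the Ad-OSCAR and treated cultures overlapped. Slc35d1, which carries UDP-glucuronic acid and UDP-N-acetylgalactosamine into the endoplasmic reticulum, fell from 48.0 to 49.5 CPM in Control to 24.9 to 29.2 CPM in Ad-OSCAR (log2 fold change −0.84, SE 0.06). Ugdh, which makes UDP-glucuronic acid, and Slc35b2, which carries PAPS into the Golgi, changed less, with log2 fold changes of −0.42 and −0.30 (SE 0.05 for both).

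Because both PAPS synthases and Chsy1 were lower together while B4galt7 was higher, the RefSeq windows of 250 bases before their start sites are shown (GRCm38.p6, all on the plus strand, 5′ to 3′). These 4 genes were picked after their values were seen. The windows lie at chr3:131564518-131564767 for Papss1, chr19:32595465-32595714 for Papss2, chr7:66109242-66109491 for Chsy1 and chr13:55599646-55599895 for B4galt7, and none of the 4 overlaps a gene annotated in GENCODE M21. Capitals mark a GC box, searched as GGGCGG on both strands.
Papss1: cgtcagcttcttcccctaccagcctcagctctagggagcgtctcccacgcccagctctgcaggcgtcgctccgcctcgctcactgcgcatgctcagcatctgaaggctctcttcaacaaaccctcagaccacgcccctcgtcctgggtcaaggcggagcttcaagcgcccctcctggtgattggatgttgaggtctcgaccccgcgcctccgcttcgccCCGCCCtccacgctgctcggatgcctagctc
Papss2: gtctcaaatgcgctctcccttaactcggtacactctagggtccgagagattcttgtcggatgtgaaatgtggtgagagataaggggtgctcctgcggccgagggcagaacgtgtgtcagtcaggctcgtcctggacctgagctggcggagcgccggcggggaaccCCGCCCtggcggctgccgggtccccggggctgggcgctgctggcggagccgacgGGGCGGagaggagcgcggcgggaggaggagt
Chsy1: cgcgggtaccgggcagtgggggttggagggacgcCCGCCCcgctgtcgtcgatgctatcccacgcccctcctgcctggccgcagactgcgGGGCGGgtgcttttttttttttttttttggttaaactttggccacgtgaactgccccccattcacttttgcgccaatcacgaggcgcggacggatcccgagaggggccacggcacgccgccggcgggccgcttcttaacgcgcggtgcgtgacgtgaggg
B4galt7: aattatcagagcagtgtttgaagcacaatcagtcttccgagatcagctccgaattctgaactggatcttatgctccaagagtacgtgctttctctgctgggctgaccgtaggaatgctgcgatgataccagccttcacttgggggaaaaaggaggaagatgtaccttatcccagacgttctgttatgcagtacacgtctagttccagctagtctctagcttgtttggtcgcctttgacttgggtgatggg

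The Papss1 window held 1 GC box, 31 bases before the start, and the Papss2 window held 2, at 85 and 31 bases before it. The Chsy1 window also held 2, farther out at 216 and 160 bases, and the B4galt7 window held no match to any of the 5 motifs searched. GC made up 65.2%, 67.6% and 65.6% of the Papss1, Papss2 and Chsy1 windows and 48.0% of the B4galt7 window. Among the 31 members with a RefSeq window, 23 (74.2%) held a GC box, against 32.9% of the windows of all 27025 genes, and the median GC content was 65.2% against 52.0%. Member windows were those nearest to the GENCODE start, whereas the first window listed was used for all genes. The 27025 genes also went beyond the 15362 tested for expression, so the 2 sets are not matched. Each of the other 4 motifs occurred in 1 member window: ACAATG, the core bound by SOX factors (10.99% of all windows), the AP-1 motif TGANTCA (6.87%), the cAMP response element TGACGTCA (1.62%) and the TATA box TATAAA (13.0%). A GC box was also in the windows of Chst15, which was higher in Ad-OSCAR cells, and of Xylt2, Ust, Ndst2, Chst14 and Extl2, which did not pass the test. Conversely, the window of Hs6st2, which was lower in Ad-OSCAR cells (log2 fold change −1.08), held the TATA box and no GC box. The 4 windows shown therefore do not stand for all members. Such matches describe the letters in the window and were not tested for binding.

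In the linker step 3 of 6 genes were lower in Ad-OSCAR cells, 1 was higher and 2 did not pass the test. Of all genes tested, 32.2% were lower and 32.7% higher. Xylt1, which starts chains by placing xylose on the core protein, was at 370, 362 and 373 CPM in Control, 161, 162 and 168 CPM in Ad-OSCAR and 163, 163 and 176 CPM in treated cultures. It was 2.25-fold lower in Ad-OSCAR (log2 fold change −1.17, SE 0.05, edgeR adjusted p = 9.04e-14), with no overlap with Control. Its relative Xylt2, which adds the same sugar, spanned 32.5 to 39.2 CPM in Control and 33.1 to 36.9 CPM in Ad-OSCAR (log2 fold change −0.04, SE 0.08).

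B4galt7, which adds the first galactose, went the other way. It was at 38.7, 38.1 and 40.7 CPM in Control, 54.3, 50.1 and 54.7 CPM in Ad-OSCAR and 43.8, 42.7 and 43.8 CPM in treated cultures. The Ad-OSCAR cultures were the highest of the 9, by 1.36-fold over Control (log2 fold change 0.44, SE 0.05, edgeR adjusted p = 4.83e-07). Fam20b, the kinase that phosphorylates the xylose, was lower (log2 fold change −0.54, SE 0.05). Its estimates were not whole counts in all 9 cultures, so part of its reads was shared out by the counting. It shares 400 bp on the opposite strand with Gm19918, which had 58 to 88 counts. B3gat3, which closes the linker with glucuronic acid, was at 33.0 to 36.6 CPM in Control and 34.0 to 38.2 CPM in Ad-OSCAR. B3galt6, which adds the next galactose, was lower by a smaller margin (log2 fold change −0.24, SE 0.09, edgeR adjusted p = 0.028). Its call was lost without Control replicate 1 (adjusted p = 0.0998), without Ad-OSCAR replicate 3 (0.15), with DESeq2 (0.0708) and with scaling by library size only (0.281), and its adjusted p over 17 alternatives ran from 0.0102 to 0.281.

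**Figure D2:**
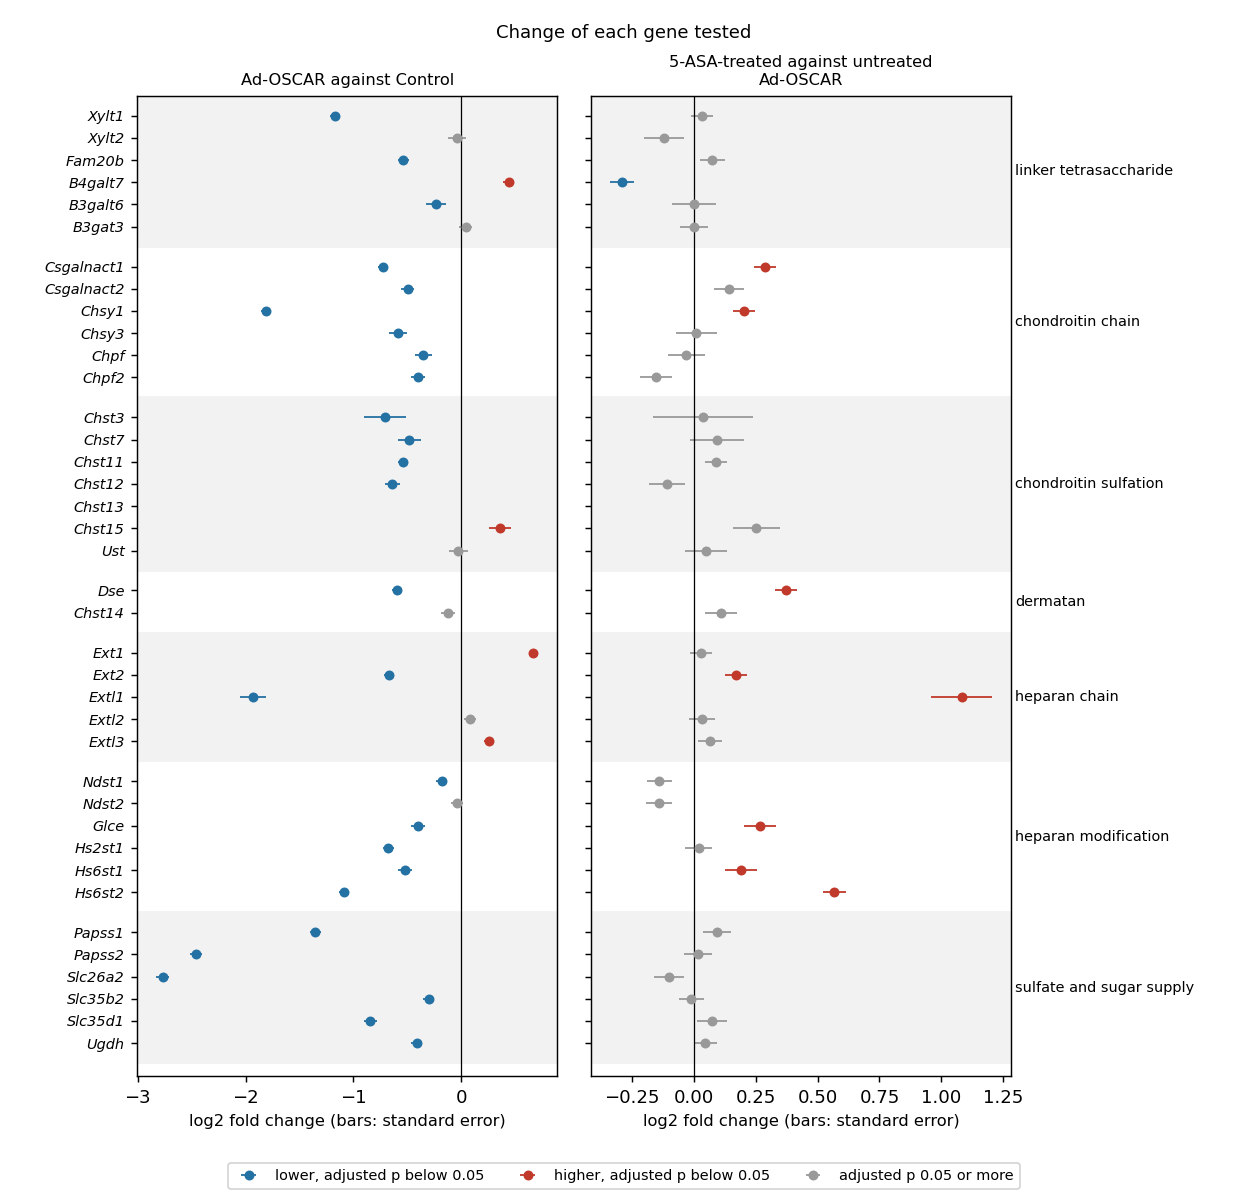
Log2 fold change with its standard error for the 37 genes tested, grouped by step, for Ad-OSCAR against Control (left) and for 5-ASA-treated against untreated Ad-OSCAR (right), with an axis of its own for each and colour for the edgeR call. On the left 27 genes lie below 0 and are called lower, down to −2.77 for Slc26a2, and on the right 8 are called higher, up to 1.08 for Extl1.

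Transcripts for chondroitin chain synthesis were lower throughout: all 6 genes passed the test in that direction, with a median log2 fold change of −0.54. Of all genes tested, 32.2% were lower. Chsy1, a polymerase that adds both sugars of the chondroitin repeat, was at 240, 234 and 241 CPM in Control, 68.8, 67.9 and 67.3 CPM in Ad-OSCAR and 78.3, 79.7 and 76.8 CPM in treated cultures. It was 3.50-fold lower in Ad-OSCAR (log2 fold change −1.81, SE 0.04, edgeR adjusted p = 1.20e-16), and the 3 groups did not overlap. Csgalnact1, which adds the N-acetylgalactosamine that commits a linker to chondroitin, was at 175, 166 and 169 CPM in Control, 99.2, 107 and 103 CPM in Ad-OSCAR and 125, 128 and 124 CPM in treated cultures. The difference between Ad-OSCAR and Control was 1.65-fold (log2 fold change −0.72, SE 0.05, edgeR adjusted p = 1.17e-10). Csgalnact2, its relative, and Chsy3, a second type of chondroitin synthase, had log2 fold changes of −0.50 (SE 0.06) and −0.59 (SE 0.08). The polymerizing factors Chpf and Chpf2 had the smallest changes of the step, −0.35 (SE 0.08) and −0.40 (SE 0.06). Chpf2 shares 3739 bp with Smarcd3 on the opposite strand and had estimates that were not whole counts in all 9 cultures, so part of its reads was shared out by the counting.

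Among the chondroitin sulfotransferases, 4 of 6 tested were lower in Ad-OSCAR cells, 1 was higher and 1 did not pass the test. The shares over all genes tested were 32.2% lower and 32.7% higher. The main enzymes of sulfation at position C4, Chst11 and Chst12, were lower with log2 fold changes of −0.54 (SE 0.04) and −0.64 (SE 0.07). Chst11 was at 228 to 245 CPM in Control and 160 to 165 CPM in Ad-OSCAR, and Chst12 at 100 to 118 CPM in Control and 66.3 to 76.9 CPM in Ad-OSCAR. Chst3 and Chst7, which sulfate at position C6, were lower as well (−0.71, SE 0.19, and −0.48, SE 0.11), at far fewer counts: Chst3 did not exceed 3.65 CPM and Chst7 did not exceed 7.98 CPM in any culture. Ust, which sulfates the uronic acid, was at 9.30 to 9.61 CPM in Control and 9.13 to 9.36 CPM in Ad-OSCAR (log2 fold change −0.03, SE 0.09). Chst15, which adds a further sulfate to N-acetylgalactosamine that is already sulfated, was higher: 5.92 to 7.32 CPM in Control, 7.89 to 9.19 CPM in Ad-OSCAR and 9.66 to 10.1 CPM in treated cultures (log2 fold change 0.36, SE 0.10, edgeR adjusted p = 0.00592 for Ad-OSCAR against Control). Chst15 shares 81449 bp with the annotated span of Fgfr2 on the same strand. Its estimates were whole counts in every culture, and whether reads of Fgfr2 entered its few counts was not tested.

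Dermatan sulfate is made from chondroitin by turning glucuronic into iduronic acid. Dse, the epimerase of that step, was at 256, 256 and 255 CPM in Control, 165, 171 and 170 CPM in Ad-OSCAR and 218, 228 and 208 CPM in treated cultures. Ad-OSCAR cells held 1.52-fold less than Control (log2 fold change −0.60, SE 0.04, edgeR adjusted p = 1.05e-09). Chst14, the dermatan sulfotransferase, overlapped between these groups, at 45.9 to 54.5 CPM and 41.8 to 47.7 CPM (log2 fold change −0.12, SE 0.06).

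Of the 5 heparan chain genes, 2 were higher in Ad-OSCAR cells, 2 were lower and 1 did not pass the test, where 32.7% of all genes were higher and 32.2% lower. Ext1 and Ext2, whose products form the heparan polymerase together, moved in opposite directions. Ext1 was at 122, 127 and 132 CPM in Control, 198, 201 and 205 CPM in Ad-OSCAR and 203, 207 and 206 CPM in treated cultures (1.59-fold higher in Ad-OSCAR, log2 fold change 0.67, SE 0.04, edgeR adjusted p = 2.20e-10). Ext2 was at 217, 210 and 211 CPM in Control, 132, 137 and 132 CPM in Ad-OSCAR and 149, 148 and 155 CPM in treated cultures (1.59-fold lower in Ad-OSCAR, log2 fold change −0.67, SE 0.04, edgeR adjusted p = 1.48e-10). Neither overlapped with Control, and Ext2 shares 20312 bp on the opposite strand with Alx4, which had 10 or fewer counts in each culture.

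Extl1, a less studied relative of these polymerases, was at 33.1, 27.7 and 29.9 CPM in Control, 7.29, 10.3 and 6.33 CPM in Ad-OSCAR and 16.3, 16.96 and 17.1 CPM in treated cultures. It was 3.81-fold lower in Ad-OSCAR (log2 fold change −1.93, SE 0.12, edgeR adjusted p = 6.24e-11), and the 3 groups did not overlap. Extl3, which adds the N-acetylglucosamine that commits a linker to heparan, was higher, at 106 to 112 CPM in Control and 128 to 132 CPM in Ad-OSCAR (log2 fold change 0.26, SE 0.05, edgeR adjusted p = 0.000209). Extl2, another transferase acting on the linker, was at 29.6 to 32.2 CPM in Control and 31.2 to 34.3 CPM in Ad-OSCAR.

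Of the 6 genes that modify heparan chains, 5 were lower in Ad-OSCAR cells, where 32.2% of all genes were lower, and Ndst2 did not pass the test. Hs6st2, a sulfotransferase for position C6 of glucosamine, changed most. It was at 167, 179 and 167 CPM in Control, 81.2, 80.8 and 80.0 CPM in Ad-OSCAR and 124, 119 and 115 CPM in treated cultures (2.12-fold lower in Ad-OSCAR, log2 fold change −1.08, SE 0.05, edgeR adjusted p = 4.93e-13). The groups were apart from one another, with the treated cultures between the other 6. Its relative Hs6st1 was at 48.2, 43.2 and 51.1 CPM in Control, 32.9, 35.3 and 30.6 CPM in Ad-OSCAR and 36.6, 37.1 and 39.1 CPM in treated cultures (log2 fold change −0.53, SE 0.06, for Ad-OSCAR against Control). Reads of Hs6st1 were partly shared out by the counting, with estimates that were not whole in 7 cultures.

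Hs2st1, which sulfates the uronic acid of heparan, was 1.60-fold lower, at 66.2 to 74.1 CPM in Control and 42.9 to 45.9 CPM in Ad-OSCAR. Glce, the epimerase that makes iduronic acid in heparan, was at 60.6, 64.6 and 63.6 CPM in Control, 45.9, 48.9 and 48.3 CPM in Ad-OSCAR and 57.6, 63.8 and 50.7 CPM in treated cultures (log2 fold change −0.40, SE 0.07, edgeR adjusted p = 3.46e-05 for Ad-OSCAR against Control). The N-sulfating enzymes Ndst1 and Ndst2 changed little. Ndst1 had a log2 fold change of −0.18 (SE 0.05, edgeR adjusted p = 0.00495), a call that scaling by library size only removed (adjusted p = 0.367, with 0.000595 to 0.367 over the 17 alternatives), and Ndst2 one of −0.04 (SE 0.05). Ndst1 shares 1553 bp on the opposite strand with the ribosomal protein gene Rps14.

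Levels of different genes can be compared within a culture on the deposited TPM scale, which divides by transcript length. In Control cells Ugdh (194 ± 1.25 TPM, SD, n = 3) and Papss2 (171 ± 12.5 TPM) led the members, followed by Ext2 (153 ± 2.35 TPM). In Ad-OSCAR cells Ugdh still led (146 ± 7.92 TPM), but Ext1 had moved from rank 14 to rank 2 (108 ± 7.86 TPM), Papss2 from rank 2 to rank 18 (31.8 ± 2.69 TPM) and Slc26a2 from rank 18 to rank 31 (6.88 ± 0.460 TPM). The supply genes made up 28.8% ± 0.717 of the summed TPM of all members in Control, 22.01% ± 0.460 in Ad-OSCAR and 21.1% ± 0.636 in treated cells. Heparan chain genes made up 13.5% ± 0.253, 18.9% ± 0.452 and 19.2% ± 0.188 in the same order. Such shares are descriptions, and TPM was not compared between cultures because the acute-phase gene Saa3 took 3.12 to 3.22% of all TPM in Control and 12.7 to 15.2% in the other cultures.

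Several steps are served by 2 related enzymes, and their balance differed between groups in 4 pairs by more than 10 percentage points. Ext1 made up 29.4, 30.0 and 28.1% of the summed TPM of Ext1 and Ext2 in Control, 51.6, 52.4 and 55.7% in Ad-OSCAR and 50.3, 52.0 and 48.4% in treated cultures. Papss1 went from 24.8 to 25.7% of the PAPS synthase pair in Control to 41.1 to 44.0% in Ad-OSCAR and 42.4 to 45.1% in treated cultures. Both PAPS synthases were lower, so the larger share of Papss1 reflects the larger fall of Papss2.

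The other pairs beyond that limit lost share of their main enzyme. Xylt1 made up 77.0 to 79.4% of the xylosyltransferase pair in Control, 59.2 to 63.5% in Ad-OSCAR and 61.0 to 64.7% in treated cultures. Chsy1 made up 88.7 to 89.7% of the pair with Chsy3 in Control, 75.7 to 80.4% in Ad-OSCAR and 78.9 to 80.6% in treated cultures. Hs6st1 behaved differently from these 4: its share of the pair with Hs6st2 was 23.6% ± 1.60 in Control, 30.9% ± 2.12 in Ad-OSCAR and 24.5% ± 1.05 in treated cultures. In the remaining 5 pairs the means of the groups lay within 7 percentage points of one another.

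**Figure D3:**
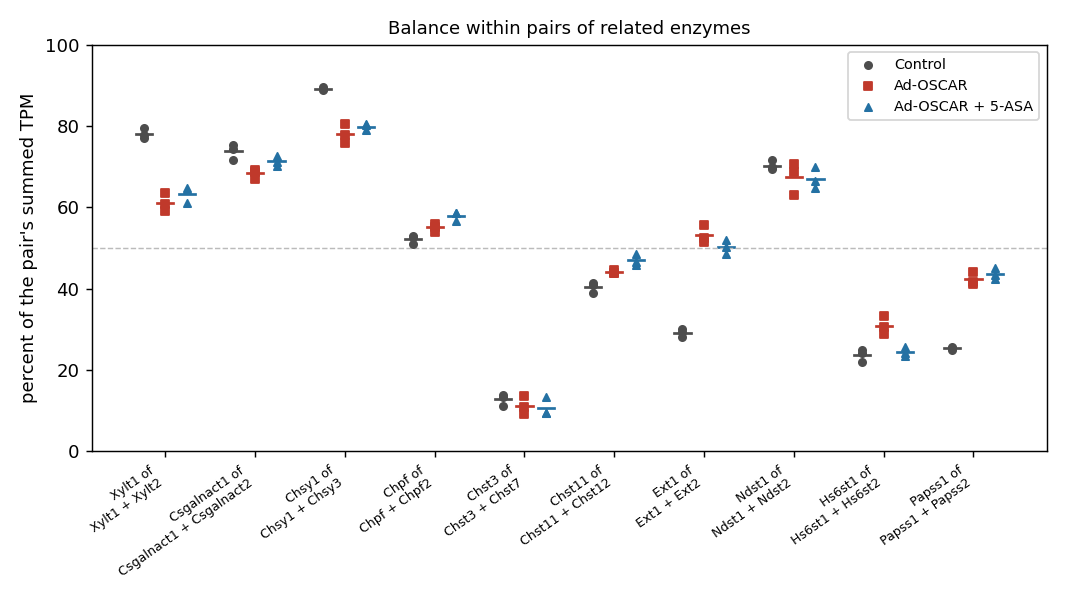
Share of the first-named enzyme in the summed TPM of each of 10 pairs of related enzymes, in percent, with 1 point per culture and a bar at the mean of the 3 cultures of a group. The Control cultures stand apart from the other 6 for Xylt1, Chsy1, Ext1 and Papss1, and the dashed line marks equal shares.

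Treatment of Ad-OSCAR cells with 5-ASA raised 8 of the 37 members tested and lowered 1, and 28 did not pass the test. That is 21.6% higher and 2.703% lower, where 10.4% of all genes tested were higher and 7.38% lower, and the median log2 fold change was 0.05 over the members and −0.00 over all genes. Those raised were Extl1, Hs6st2, Dse, Csgalnact1, Glce, Chsy1, Hs6st1 and Ext2, and the one lowered was B4galt7. Treated and untreated cultures did not overlap for 10 members on the higher and 2 on the lower side, where 17.8% and 16.1% of all genes were so placed. Of the 6 supply genes 0 passed with edgeR or DESeq2, and 0 had an unadjusted p below 0.05. Of the 6 chondroitin sulfotransferases tested 0 passed with either tool, and 1, Chst15, had an unadjusted p below 0.05. With the limits the study used for 5-ASA (a fold change beyond 1.5 and an unadjusted p below 0.05), 1 member, Extl1, was higher and none was lower (4 had an unadjusted p below 0.05 in that direction), against 2.27% and 1.87% of all genes. The study's methods name those limits for treated Ad-OSCAR cells against Ad-Control, a different comparison that is given further below. Scaling by library size only, which moved the median of all genes by −0.07, gave 6 members higher and 5 lower, and all genes went from 1598 higher and 1134 lower to 1058 higher and 2523 lower. Without Ad-OSCAR replicate 1, 5 members were higher, and without Ad-OSCAR + 5-ASA replicate 3, 3 were lower, Chpf2 and Ndst1 being added to B4galt7.

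Extl1 rose most, 2.12-fold (log2 fold change 1.08, SE 0.12, edgeR adjusted p = 5.88e-06), from 6.33 to 10.3 CPM to 16.3 to 17.1 CPM, which left it below every Control culture. Hs6st2 rose 1.48-fold (log2 fold change 0.57, SE 0.05, edgeR adjusted p = 2.00e-07), Dse 1.29-fold (0.37, SE 0.04, adjusted p = 1.17e-05) and Csgalnact1 1.22-fold (0.29, SE 0.05, adjusted p = 0.000218). For each of these 4 genes the treated cultures were higher than all untreated Ad-OSCAR cultures and lower than all Control cultures. B4galt7 fell 1.22-fold with treatment (log2 fold change −0.29, SE 0.05, edgeR adjusted p = 0.000422), to a level below the Ad-OSCAR and above the Control cultures. These 5 calls and that of Chsy1 held under all 17 alternatives of scaling, filter, tool, design and left-out culture.

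Chsy1 rose 1.15-fold (log2 fold change 0.20, SE 0.04, edgeR adjusted p = 0.00321), a small part of the distance to Control. Ext2 rose 1.12-fold (0.17, SE 0.04, edgeR adjusted p = 0.0102) and lost its call without Ad-OSCAR replicate 1 (0.0533) and with scaling by library size only (0.107), with adjusted p from 0.000406 to 0.107 over the alternatives. Glce rose 1.204-fold (0.27, SE 0.07, edgeR adjusted p = 0.00782), with treated cultures spread from 50.7 to 63.8 CPM, and lost its call without Ad-OSCAR replicate 1 (0.0527, range 7.85e-05 to 0.0527). Hs6st1 was at the limit (1.14-fold, log2 fold change 0.19, SE 0.06, edgeR adjusted p = 0.0497), and 10 of the 17 alternatives removed its call, with adjusted p from 0.0203 to 0.212. Leaving out any 1 treated culture, Control replicate 1 or Ad-OSCAR replicate 1 or 3 was enough to remove it (adjusted p 0.0679 to 0.212).

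**Figure D4:**
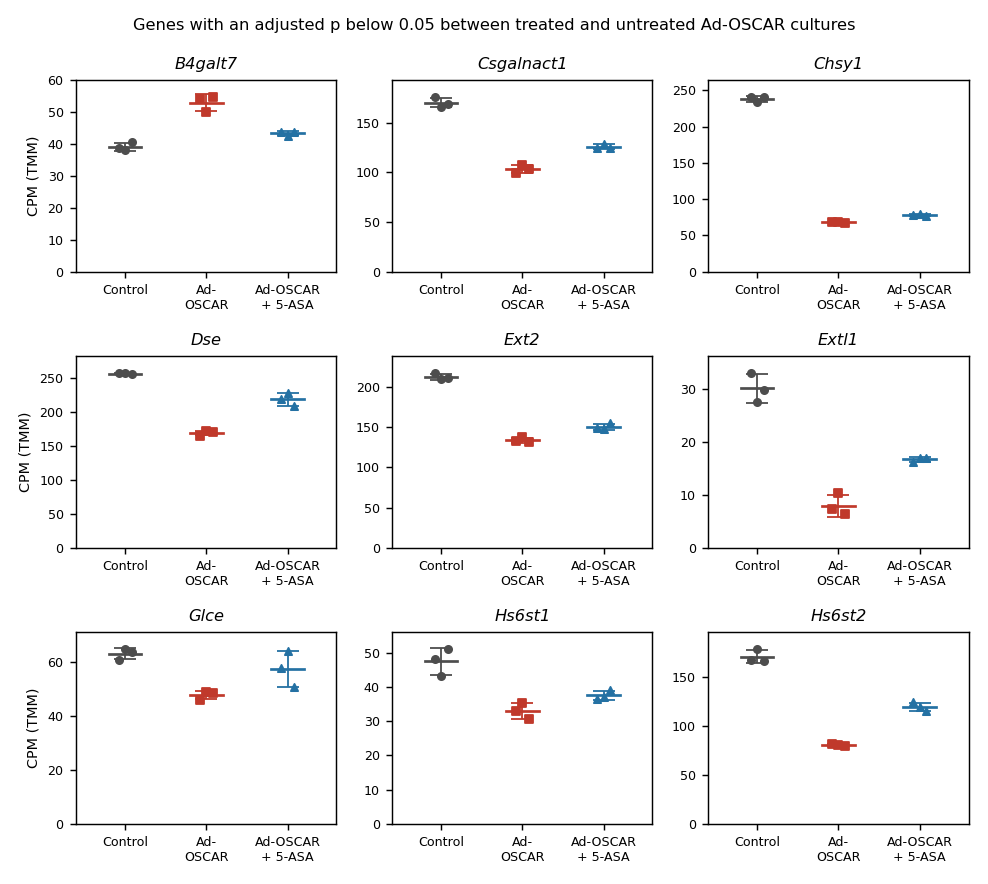
CPM after TMM normalization of the 9 genes with an edgeR adjusted p below 0.05 between treated and untreated Ad-OSCAR cultures, with 1 point per culture, a horizontal bar at the mean and an error bar of 1 SD (n = 3), each panel starting at 0. The 8 raised genes lie between Ad-OSCAR and Control on average, and B4galt7 is highest in untreated Ad-OSCAR cells.

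Slc26a2, both PAPS synthases and Xylt1, all lower than Control in Ad-OSCAR cells, did not pass the test with 5-ASA, whereas Extl1 and Chsy1 did. Slc26a2 had a log2 fold change of −0.10 (SE 0.06, edgeR adjusted p = 0.284), Papss2 one of 0.02 (SE 0.06, adjusted p = 0.887), Papss1 one of 0.09 (SE 0.06, adjusted p = 0.291) and Xylt1 one of 0.03 (SE 0.05, adjusted p = 0.669). Under the alternatives the adjusted p of Slc26a2 ran from 0.0485, with scaling by library size only, to 0.59. Ext1, which had risen with OSCAR, stood at 198 to 205 CPM without and 203 to 207 CPM with 5-ASA (log2 fold change 0.03, SE 0.04).

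Against Control, treated Ad-OSCAR cells had 27 members lower and 4 higher, with 31.8% and 31.4% of all genes tested lower and higher. The cultures of these groups did not overlap for 27 members on the lower and 5 on the higher side, against 33.3% and 33.4% of all genes. With the 1.5-fold limit and unadjusted p the counts were 10 lower and 2 higher, against 15.3% and 14.6% of all genes. The untreated Ad-OSCAR cultures are shared by the comparisons with Control and with 5-ASA, so a high or low value there moves both, and the values are given side by side without a test of their relation. Slc26a2 was at −2.77 in Ad-OSCAR and −2.87 in treated cells relative to Control (log2, SE 0.06 for each), Papss2 at −2.46 and −2.44, Chsy1 at −1.81 and −1.60, Extl1 at −1.93 and −0.85, Hs6st2 at −1.08 and −0.52, and Dse at −0.60 and −0.23. Glce did not pass the test between treated and Control cells, at −0.13 (SE 0.07, edgeR adjusted p = 0.0841). Ndst2 was lower than Control in treated cells (log2 fold change −0.18, SE 0.05, edgeR adjusted p = 0.00782), and Chst15 was 1.52-fold above Control (0.61, SE 0.10, edgeR adjusted p = 4.54e-05).

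Genes around the pathway were read from lists of the same kind. Of 15 further genes for sugar precursors, sulfate and the linker, 10 were lower in Ad-OSCAR cells and 3 higher, with 1 higher and 0 lower with 5-ASA (edgeR, adjusted p below 0.05; 2 at an unadjusted p below 0.05 and 0 with DESeq2). Over all genes tested, 32.2% were lower and 32.7% higher with OSCAR, and 10.4% were higher and 7.38% lower with 5-ASA. Scaling by library size only, which moved the median of all genes by −0.07, turned the count with 5-ASA to 0 higher and 6 lower. The sulfate transporter Slc26a1, at under 2 CPM, had a log2 fold change of −1.24 (SE 0.28). Uap1, which makes UDP-N-acetylglucosamine, and the nucleotide sugar transporter Slc35d2 were higher by 0.41 (SE 0.05) and 0.27 (SE 0.11). The call of Slc35d2 was borderline (edgeR adjusted p = 0.0452) and was lost under 11 of 17 alternatives, DESeq2 among them, with adjusted p from 0.00502 to 0.217. A further 14 genes of heparan and dermatan modification were listed, and 9 were tested. Against 32.7% of all genes higher and 32.2% lower, 4 (44.4%) were higher and 2 (22.2%) lower in Ad-OSCAR cells. Those with the largest rise were Hs3st1 (log2 fold change 1.51, SE 0.47) and Ndst3 (1.22, SE 0.35), both near 1 CPM or lower, while the extracellular sulfatases Sulf1 and Sulf2, which take sulfate off heparan, rose from 350 to 371 CPM to 590 to 616 CPM (0.73, SE 0.04) and from 144 to 155 CPM to 253 to 258 CPM (0.77, SE 0.05). The epimerase Dsel (−0.28, SE 0.06) and the heparanase Hpse (−0.21, SE 0.09) were lower. The call of Hpse (edgeR adjusted p = 0.0436) was lost under 13 of 17 alternatives, DESeq2 and the omission of any 1 Control or Ad-OSCAR culture among them (0.0345 to 0.425). That of Hs3st1 (adjusted p = 0.00902) was lost without Control replicate 1 and without Ad-OSCAR replicate 2 (up to 0.0604). With 5-ASA none of the 9 was higher (0 by edgeR, 0 at an unadjusted p below 0.05 and 0 with DESeq2), and Sulf2 (−0.20, SE 0.05) and Hpse (−0.29, SE 0.09) were lower, calls lost under 1 and 7 of 17 alternatives, that of Sulf2 without Ad-OSCAR + 5-ASA replicate 2 (adjusted p = 0.077). Of 5 tested keratan sulfate genes, out of 7 listed, Chst1, a keratan sulfotransferase, was lower (−1.75, SE 0.15), as was the galactosyltransferase B4galt1 (−0.15, SE 0.05), a call that was lost with scaling by library size only and without Ad-OSCAR replicate 1, and the other 3 did not pass.

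Of 25 core proteins tested, which carry the chains, 10 (40%) were higher and 14 (56%) lower in Ad-OSCAR cells, where 32.7% of all genes were higher and 32.2% lower. Acan, the aggrecan core, fell from 2232 to 2490.1 CPM to 26.6 to 29.4 CPM (log2 fold change −6.38, SE 0.07), and Bcan, the brevican core at under 4 CPM, had a log2 fold change of −3.47 (SE 0.29). Prg4, the lubricin core, and Srgn, the serglycin core, had the largest rises (1.86, SE 0.04, and 1.62, SE 0.09). With 5-ASA 13 core proteins were higher and 2 lower, where 10.4% of all genes were higher and 7.38% lower, and scaling by library size only gave 9 higher and 2 lower.

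Markers of other cell types that the cultures could hold were read beside these results. The 6 fibroblast and synovial markers summed to 13569 to 14402 CPM in Control, 10760 to 11609 CPM in Ad-OSCAR and 12771 to 13907 CPM in treated cultures. With OSCAR 3 of the 6 were higher and 3 lower, where 32.7% of all genes were higher and 32.2% lower. With 5-ASA 3 were higher and 2 lower, where 10.4% of all genes were higher and 7.38% lower. The 6 leukocyte and macrophage markers summed to 5.59 to 7.61 CPM in Control, 13.1 to 14.04 CPM in Ad-OSCAR and 11.7 to 11.9 CPM in treated cultures. Their defining genes Ptprc, Adgre1 and Itgam had 3 or fewer counts in every culture. Of the 3 of these that were tested, Cd68, a macrophage lysosomal protein, rose from 1.51 to 2.64 CPM to 8.14 to 8.26 CPM with OSCAR (log2 fold change 2.06, SE 0.15) and was at 5.80 to 6.69 CPM in treated cultures (−0.38, SE 0.12, against untreated, a call lost under 7 of 17 alternatives). Lyz2, a lysozyme, was higher by 0.43 (SE 0.14) with OSCAR, a call lost under 3 of 17 alternatives (DESeq2, without Control replicate 2 and without Ad-OSCAR replicate 3), and Csf1r did not pass. Osteoblast markers (4 genes) summed to 33.7 to 40.4, 4.84 to 7.34 and 12.7 to 13.8 CPM, and osteoclast markers (4 genes) to 16.1 to 18.6 CPM across all cultures. The 2 osteoblast markers tested, Ibsp and Sp7, were lower with OSCAR. With 5-ASA Ibsp was higher (log2 fold change 1.27, SE 0.13) and Sp7 did not pass. Among the osteoclast markers Acp5 was lower (−0.62, SE 0.08) and Ctsk (0.59, SE 0.10) and Calcr (3.16, SE 0.51, under 1 CPM) were higher in Ad-OSCAR than in Control cultures. Endothelial and muscle and adipocyte markers (4 genes each) summed to at most 2.80 CPM and 1.19 CPM, with Cdh5, Myod1 and Adipoq at 3 or fewer counts in each group. Tek, the only endothelial marker tested, rose from 0.42 to 0.76 CPM to 1.85 to 2.55 CPM with OSCAR (log2 fold change 1.88, SE 0.25). It was lower with 5-ASA (−0.69, SE 0.21), a call lost under 6 of 16 alternatives, DESeq2 among them. The part that the shift in chondrocyte, fibroblast, osteoblast, osteoclast, endothelial or macrophage markers had in the values of the glycosaminoglycan genes was not tested.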

How the data were processed

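RNA from 9 cultures (3 groups of 3) was sequenced from stranded mRNA libraries. Per the study's methods and the submitters' processing notes, the authors aligned reads with STAR 2.7.1a to GRCm38 and deposited RSEM 1.3.1 estimated counts, unscaled, and TPM, scaled to transcript length and library; the study's reporting summary names another RSEM version, and the strand setting is not given in the sources used here. Symbols came from GENCODE M21, in which 55144 of 55471 identifiers were found.

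Estimated counts were rounded and fitted in R 4.3.3 with edgeR 4.0.16 (TMM, filterByExpr, quasi-likelihood F test, 1 fit of 9 cultures, two-sided, Benjamini-Hochberg adjustment over 15362 genes, biological coefficient of variation 5.11%). CPM are on the TMM scale, and standard errors were derived from F (log2 fold change over its root). A call is an adjusted p below 0.05. Values per culture are given for members called with an absolute log2 fold change of at least 1 with OSCAR, or called with 5-ASA, and of the further lists for the 2 largest and 2 smallest log2 fold changes called; Ext1, Sulf1, Chst15 and others outside that rule were described after their values were seen, and some genes of those lists are not reported here. Members and lists were chosen with earlier results of these data known. The model was also run on simulated counts with known fold changes, and the outcome is not given here. Alternatives were DESeq2 1.42.0, other scalings and filters, only the 2 groups compared, a replicate block, and each culture left out in turn (17 in all). Replicates of a group differed by more than sampling noise (chi-square per degree of freedom 4.25 to 8.10). TPM served only to compare genes within a culture.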

Additional observations from a re-analysis of the deposited data

How the results depend on the processing

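Among alternative log2 fold changes of the members called or named, 522 with OSCAR and 202 with 5-ASA kept their direction and side of the threshold, 5 and 13 lost the call, 1 with 5-ASA gained it and 5 with 5-ASA changed sign. With OSCAR the count of members lower was 25 to 28 and higher 4 to 6 under the alternatives other than the study's limits, which gave 4 lower and 0 higher because they also ask for a size. The study's limits for 5-ASA gave 1 higher and 0 lower for treated against untreated Ad-OSCAR cells. Against Control, the comparison named in the study's methods, they gave 2 higher and 10 lower. With 5-ASA, leaving out 1 culture gave 5 to 9 members higher and 1 to 3 lower, with 5 higher without Ad-OSCAR replicate 1 and 3 lower without Ad-OSCAR + 5-ASA replicate 3; scaling by library size only gave 5 lower, and no filter on low counts gave 2, Chpf2 being added. Signs near 0 changed for 5-ASA in Xylt1 (log2 fold change −0.0366 by library size only, −0.00446 to 0.0544 with 1 culture left out) and Papss2 (−0.0543 by library size only, −0.0321 to 0.0430 with 1 culture left out). The cause was not tested.

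The replicate numbers of the labels were also used as a block. Cultures with the same number did not deviate together (9 pairs, mean correlation −0.0209, from −0.0723 to 0.0396), and 2 of 9 cultures correlated best with their own number, so the groups share only a number. With the replicate block, 4 members were higher and 27 lower with OSCAR, 7 higher and 1 lower with 5-ASA, Hs6st1 losing its call (edgeR adjusted p = 0.0741), and 4 higher and 27 lower for treated cells against Control. Depth limits the scarce members most: Chst3, at 1.69 to 3.65 CPM, had the largest standard error with OSCAR (0.19).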

Other observations

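Enzymes that break glycosaminoglycans down in the lysosome were measured in the same cultures (13 of 13 tested). In Ad-OSCAR cells 6 were higher than in Control and 3 lower (edgeR, adjusted p below 0.05), where 32.7% of all genes tested were higher and 32.2% lower, and the median log2 fold change of the list was 0.10. Idua, which removes iduronic acid, rose from 21.1 to 23.3 CPM in Control to 31.1 to 34.3 CPM in Ad-OSCAR (log2 fold change 0.56, SE 0.06). Ids, a sulfatase for iduronic acid, fell from 98.3 to 108 CPM to 64.4 to 69.9 CPM (−0.59, SE 0.05), and Arsb, a sulfatase for N-acetylgalactosamine, from 47.3 to 51.5 CPM to 33.8 to 34.2 CPM (−0.53, SE 0.05). With 5-ASA 1 of the 13, Ids, was higher (log2 fold change 0.15, SE 0.05, edgeR adjusted p = 0.0467, a call lost under 13 of 17 alternatives) and 0 were lower (2 at an unadjusted p below 0.05 and 0 with DESeq2). Of all genes tested, 10.4% were higher and 7.38% lower with 5-ASA. Scaling by library size only gave 9 higher and 2 lower with OSCAR, and 0 higher and 3 lower with 5-ASA.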
